A study of Caenorhabditis elegans with 12 samples.

Results

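P granule component genes were followed as a set of 10 genes, *glh-1*, *glh-2*, *glh-3*, *glh-4*, *pgl-1*, *pgl-3*, *deps-1*, *meg-1*, *meg-3* and *meg-4*, taken by name from a table of 46926 features. All 10 were found. RNA came from whole *C. elegans* of the wild-type strain N2, fed the Δ*lpp* mutant of *E. coli* (6 libraries) or BW25113, the strain with an intact *lpp* gene that served as the control food (6 libraries). The *lpp* gene encodes the major lipoprotein of the bacterial outer membrane. The study maintained worms at 20 °C on high-fat NGM agar. The worms' age at RNA collection is not given in the sources used here, and neither is whether the libraries came from separate cultures, so the p-values measure the spread between these libraries, which may be technical.

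P granules are condensates of RNA and protein in the germ cells of *C. elegans*. In the gonad they sit on the outer face of germ cell nuclei, over the nuclear pores, and in the early embryo they are handed down to the germline precursor cells. They hold small-RNA factors and translationally silent mRNAs, and their loss is known to impair fertility. The GLH proteins are DEAD-box RNA helicases related to Vasa of *Drosophila*. PGL-1 and PGL-3 are the self-assembling scaffold proteins, DEPS-1 promotes their assembly and the accumulation of *glh-1* mRNA, and the MEG proteins are disordered proteins of embryonic P granules, where MEG-3 and MEG-4 coat the PGL condensate.

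In worms fed the Δ*lpp* mutant, *glh-1* was the 1 gene of the set that fell past the limit for a call, with 206 ± 21.6 CPM in the Δ*lpp* group and 586 ± 47.8 CPM in the BW25113 group (SD, n = 6 each). *meg-3* and *meg-4*, whose proteins act in the embryo, lay higher, by 0.59 and 0.69 on the log2 scale, short of that limit. *glh-2*, *glh-4*, *pgl-1*, *pgl-3*, *deps-1* and *meg-1* lay between -0.39 and 0.31, and *glh-3* was barely detected.

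The libraries held 20254430 to 24442423 estimated counts, with overlapping totals in the groups. Values are given as CPM, the counts relative to a library total scaled by TMM (a scaling that takes most genes as unchanged), or as the deposited TPM, which also divides by gene length. TMM moved the groups against each other: with library size only, the log2 fold changes of all tested genes had a median of 0.50 in place of 0.05, a shift of 0.45. Of the 10 genes, 9 passed the filter on low counts and were tested among 15266 genes with edgeR's quasi-likelihood test, and *glh-3* did not. A call needed an adjusted p under 0.05 by the Benjamini-Hochberg method together with a log2 fold change past 1 in either direction. By that rule 1 of the 9, *glh-1*, fell in the Δ*lpp* group, against a background of 15.6% of all tested genes called lower, and 0 rose, against 12.1% called higher. Without the limit on fold change, 2 of the 9 (*meg-3* and *meg-4*) were higher at an adjusted p under 0.05 and 3 (*glh-1*, *glh-4* and *pgl-1*) lower, against 32.9% and 32.3% of all tested genes. The groups did not overlap for *glh-1*, which was lower, and for *meg-4*, which was higher, against 23.7% and 17.8% of all tested genes. DESeq2 also called 1 lower and 0 higher. At an unadjusted p under 0.05 the same 2 genes were higher.

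**Figure D1:**
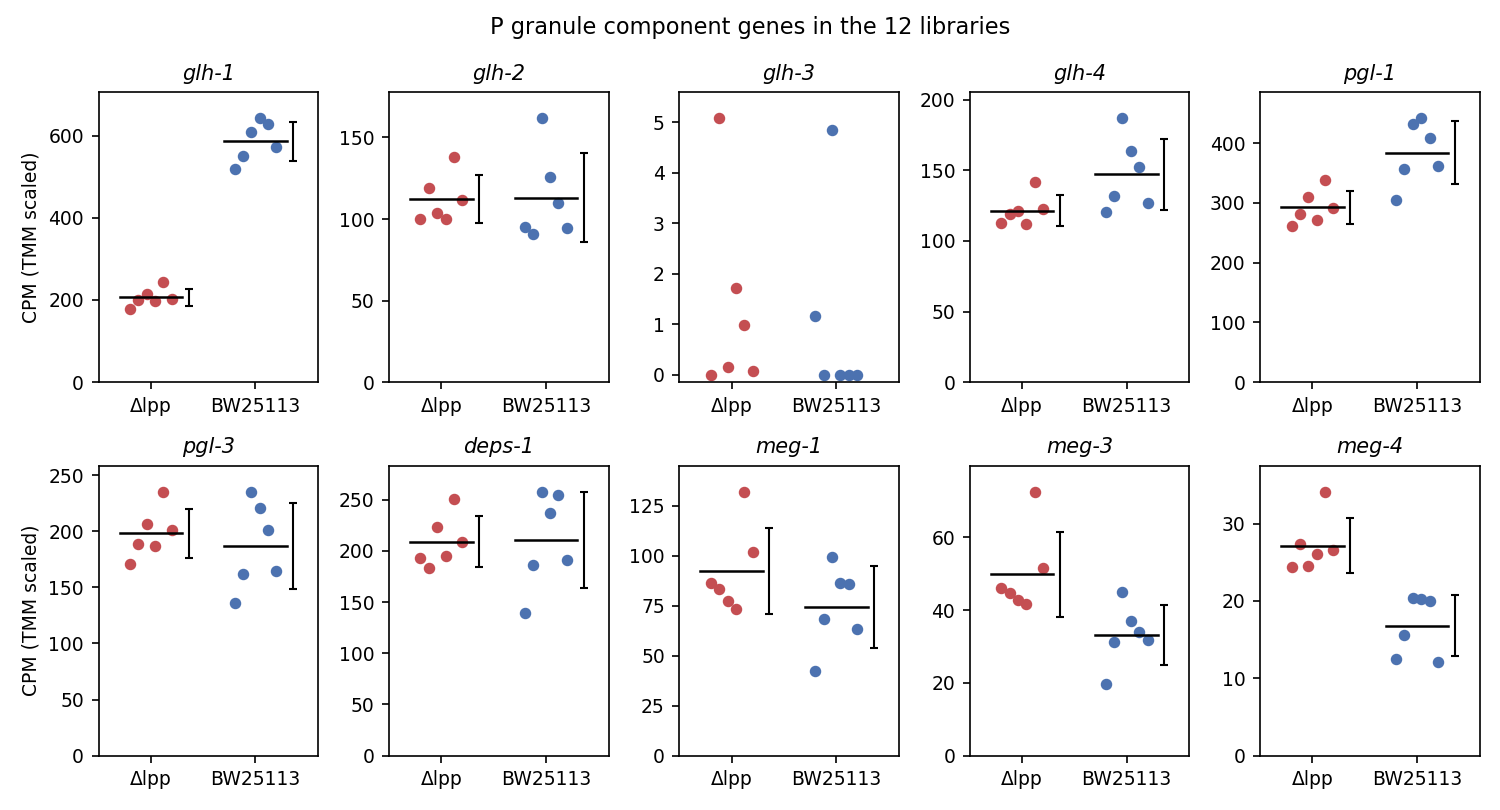
CPM scaled by TMM (y axis, from 0 except for a small margin in the *glh-3* panel) of the 10 genes in the 6 Δ*lpp* and 6 BW25113 libraries, 1 point per library in replicate order, with the mean as a line and the SD as a bar (none for *glh-3*). *glh-1* lies at 178.5 to 243.1 CPM in the Δ*lpp* group and 518.0 to 641.9 CPM in the BW25113 group, and *meg-4* is the other gene whose groups do not overlap.

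*glh-1* encodes the most studied of the germline helicases. It lies on chromosome I of WBcel235 from 6854478 to 6857536 on the plus strand, in 7 exons, and overlaps no other annotated gene. The lowest, median and highest Δ*lpp* libraries had 178.5, 201.6 and 243.1 CPM, against 518.0, 590.4 and 641.9 CPM in the BW25113 libraries. The groups lay far apart, with every Δ*lpp* library under the lowest BW25113 library. *glh-1* fell by 1.51 on the log2 scale (standard error 0.0911, adjusted p = 7.14e-11 from edgeR with Benjamini-Hochberg adjustment). With library size only its log2 fold change was -1.06, still past the limit, on a scale where 11.4% of all tested genes were called lower. On log2(TPM + 1) it was -0.89 and on log2(TPM + 0.1) it was -0.90, with adjusted p of 2.45e-08 and 2.92e-08 from limma, so that the direction held and the limit of 1 was not reached, where 8.15% of all tested genes were called lower on log2(TPM + 1). Set against the all-gene median of the same scale, *glh-1* stood at -1.56 with TMM, at -1.56 when library size alone was used and at -1.40 for log2(TPM + 1).

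None of the other 3 helicase genes was called. *glh-2*, the gene most like *glh-1* in sequence, lies on the plus strand of chromosome I (6513928 to 6517507). The gene had 99.9, 107.9 and 138.0 CPM in the lowest, median and highest Δ*lpp* libraries, and 90.9, 102.7 and 161.7 CPM in the BW25113 libraries. The groups overlapped over most of their range, and the log2 fold change was -0.011 (95% interval -0.29 to 0.26, adjusted p = 0.946 from edgeR). *glh-4*, on chromosome I from 3727027 to 3731179 on the plus strand, encodes a larger helicase of the same family. Its libraries held 112.2, 119.9 and 141.5 CPM in the Δ*lpp* group and 120.8, 142.1 and 186.8 CPM in the BW25113 group. Its groups overlapped as well, with -0.28 as its log2 fold change (standard error 0.105, edgeR adjusted p = 0.0281), short of the limit for a call. The signs of *glh-2* and *glh-4* turned positive with library size only, to 0.45 and 0.18.

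*glh-3* was at or near the limit of detection. Its locus is on the minus strand of chromosome I (5792321 to 5795114). In the Δ*lpp* group it had 0, 0.569 and 5.09 CPM as the lowest, median and highest values, against 0, 0 and 4.85 CPM in the BW25113 group. Replicate 2 of the Δ*lpp* group, with 136 counts, and replicate 3 of the BW25113 group, with 92.7 counts, held most of its counts, and 5 of the 12 libraries had none. A library without a count may still hold up to 3 counts, or 0.111 to 0.185 CPM here, and this limit covers counting error only. None of its 7 values above 0 was a whole number.

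How the counting gave values that are not whole numbers is not given in the sources used here. Such values occurred for *glh-1*, *glh-2* and *glh-4* in all 12 libraries, so how reads were divided within the helicase family is uncertain. The sum of the family as 1 feature, an alternative chosen after seeing the data, does not depend on that division. The sum had 391, 439 and 524 CPM in the lowest, median and highest Δ*lpp* libraries and 735, 842 and 961 CPM in the BW25113 libraries. The groups did not overlap, and the sum had a log2 fold change of -0.94 (standard error 0.0963, edgeR adjusted p = 9.79e-08), just short of the limit. The summed family without *glh-1* had a value of -0.15 (standard error 0.118, edgeR adjusted p = 0.267).

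Within the family the makeup differed between the foods. *glh-1* made up 51.7% to 56.2% of the summed TPM of the helicase genes in the Δ*lpp* libraries and 69.9% to 78.1% in the BW25113 libraries. For *glh-2* the share was 24.5% to 28.1% in the Δ*lpp* libraries and 11.6% to 16.8% in the BW25113 libraries. The share of *glh-4* was 18.6% to 19.9% in the Δ*lpp* libraries and 9.96% to 12.7% in the BW25113 libraries. None of these 3 shares overlapped between the groups, and shares of 1 sum cannot move independently. On counts, without a length, *glh-1* made up 45.11% to 48.84% in the Δ*lpp* libraries and 63.25% to 72.09% in the BW25113 libraries.

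**Figure D2:**
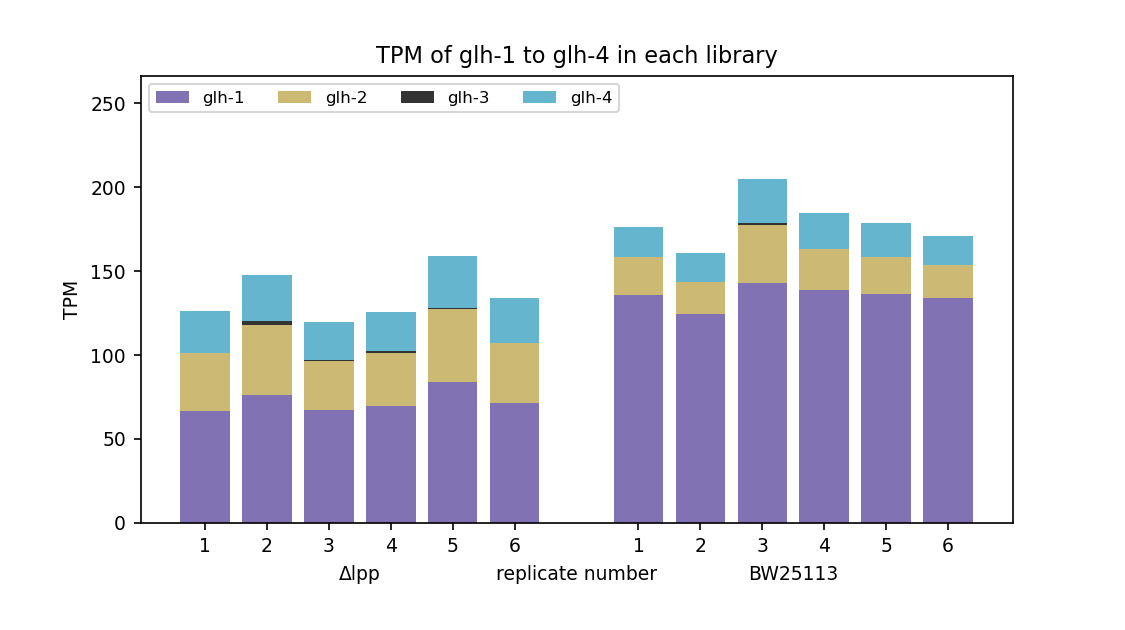
TPM (y axis) of *glh-1*, *glh-2*, *glh-3* and *glh-4*, stacked for each of the 6 Δ*lpp* and 6 BW25113 libraries (x axis, replicate number). The *glh-1* part is 66.96 to 84.19 TPM in the Δ*lpp* group and 124.7 to 143.2 TPM in the BW25113 group.

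A ratio of genes in the same library does not depend on how libraries are scaled against each other. The TPM of *glh-4* over that of *glh-1* was 0.336, 0.365 and 0.374 in the lowest, median and highest Δ*lpp* libraries, against 0.129, 0.143 and 0.182 in the BW25113 libraries. The difference on the log2 scale was 1.29 (two-sided exact permutation test over all arrangements of the 12 libraries, p = 0.00216, the smallest these groups allow, and 0.0026 after Benjamini-Hochberg adjustment over the 6 ratios computed).

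The scaffold genes *pgl-1* and *pgl-3* were among the most abundant of the set, and their counts were whole numbers in all libraries. *pgl-1* lies on chromosome IV from 6974441 to 6977318 on the minus strand. Its lowest, median and highest values were 261.5, 286.8 and 338.3 CPM in the Δ*lpp* group and 305.1, 384.8 and 441.6 CPM in the BW25113 group. The ranges overlapped from 305.1 CPM, the lowest BW25113 library, to 338.3 CPM, the highest Δ*lpp* library. The fitted difference was -0.39 on the log2 scale (standard error 0.1001, edgeR adjusted p = 0.00219), short of the limit. This sign depended on the scaling, at 0.063 when library size alone was used (edgeR adjusted p = 0.318) and 0.22 on log2(TPM + 1).

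*pgl-3*, on chromosome V from 4755979 to 4758587 on the plus strand, stood at 171.2, 194.9 and 234.7 CPM in the Δ*lpp* libraries, against 135.9 CPM in the lowest BW25113 library and a BW25113 median of 183.1 CPM. The highest library of each group lay within 1 CPM of the other, so the Δ*lpp* range fell inside the BW25113 range. Its log2 fold change was 0.087 (95% interval -0.17 to 0.34, adjusted p = 0.547 from edgeR), 0.55 for library size only and 0.70 for log2(TPM + 1). *pgl-3* over *pgl-1* in the same library had a median of 0.718 and a range of 0.691 to 0.733 in the Δ*lpp* libraries, against a median of 0.502 and a range of 0.471 to 0.575 in the BW25113 libraries. The mRNAs of the scaffold genes thus stood in a different proportion. The difference was 0.49 on the log2 scale (two-sided exact permutation test, p = 0.00216, adjusted p = 0.0026 over the 6 ratios).

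*deps-1*, the assembly factor gene, lies on chromosome I from 506473 to 509056 on the plus strand. Its last 109 bases at the 3′ end overlap *Y65B4BL.7* on the other strand, and whether the counting used strand is not given in the sources used here. It had 182.8, 201.5 and 250.9 CPM in the Δ*lpp* group and 139.0, 213.9 and 257.6 CPM in the BW25113 group. The groups overlapped, with a log2 fold change of -0.014 (95% interval -0.29 to 0.26, adjusted p = 0.931 from edgeR). With library size only it was 0.45 and on log2(TPM + 1) it was 0.61. Any link between *deps-1* and the level of *glh-1* was not tested. *deps-1* over *pgl-1* was 0.777 to 0.887 in the Δ*lpp* libraries and 0.546 to 0.747 in the BW25113 libraries, a difference of 0.39 on the log2 scale (two-sided exact permutation test, p = 0.00216, adjusted p = 0.0026 over the 6 ratios).

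The *meg* genes, whose proteins act in the embryo, all lay on the higher side in worms fed the Δ*lpp* mutant, under each scaling that was tried. *meg-3*, on chromosome X from 1986469 to 1989607 on the minus strand, had 41.6, 45.4 and 72.5 CPM in the lowest, median and highest Δ*lpp* libraries, against 19.6, 32.9 and 45.1 CPM in the BW25113 libraries. Only the highest BW25113 library reached into the Δ*lpp* range. The fitted log2 difference was 0.59 (standard error 0.167, edgeR adjusted p = 0.00494). *meg-4* lies on the plus strand of chromosome X (1682954 to 1686419) and had 24.4, 26.3 and 34.1 CPM in the Δ*lpp* group and 12.1, 17.8 and 20.4 CPM in the BW25113 group. Every Δ*lpp* library was above every BW25113 library, and the fitted log2 difference was 0.69 (standard error 0.143, edgeR adjusted p = 0.000349). Both were short of the limit with TMM. Both passed it when library size alone was used, at 1.05 and 1.16, and also on log2(TPM + 1), at 1.11 and 1.13, scales on which 24.4% and 17.3% of all tested genes were called higher.

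*meg-3* and *meg-4* are related in sequence, and 5 libraries had values that were not whole numbers for each. Summed into 1 feature, chosen after seeing the data, they differed by 0.63 on the log2 scale (standard error 0.149, edgeR adjusted p = 0.00127). *meg-3* over *meg-4* ranged over 1.56 to 2.07 in the Δ*lpp* libraries and 1.53 to 2.56 in the BW25113 libraries, so no difference was detected between these paralogs (-0.10 on the log2 scale, two-sided exact permutation test, p = 0.433, adjusted p = 0.433).

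*meg-1* lies on the minus strand of chromosome X (13927036 to 13929634), and its product takes part in the segregation of P granules. It had 73.6, 85.0 and 132.0 CPM in the Δ*lpp* libraries and 42.6, 77.2 and 99.3 CPM in the BW25113 libraries. The groups overlapped, and the log2 fold change was 0.31 (95% interval -0.065 to 0.70, adjusted p = 0.134 from edgeR). In the same library *meg-1* over *pgl-1* was 0.253 to 0.396 in the Δ*lpp* libraries and 0.142 to 0.233 in the BW25113 libraries, a difference of 0.72 on the log2 scale. For *meg-3* over *pgl-1* the ratio was 0.117 to 0.182 in the Δ*lpp* libraries and 0.0546 to 0.0883 in the BW25113 libraries, a difference of 0.98. Both ratios reached the smallest p the groups allow (two-sided exact permutation test, p = 0.00216, adjusted p = 0.0026 over the 6 ratios). The ratios of *pgl-3*, *deps-1*, *meg-1* and *meg-3* share *pgl-1* as denominator, itself at -0.39 with TMM, so they are not independent. The share of other gene pairs that separate in this way was not computed.

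**Figure D3:**
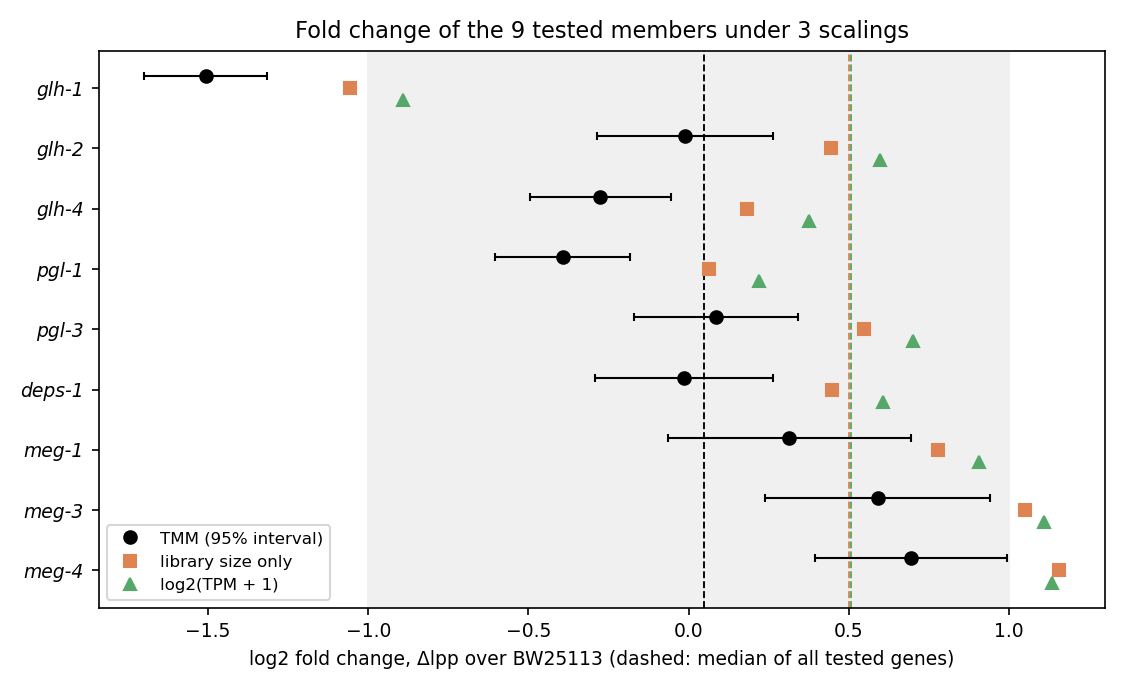
Log2 fold change, Δ*lpp* over BW25113 (x axis), of the 9 tested genes (y axis) with TMM (black, with the 95% interval), library size only (orange) and log2(TPM + 1) (green), with dashed lines at the median of all tested genes (0.05, 0.50 and 0.51) and the range short of the limit for a call in grey. *glh-1* is below 0 and *pgl-3* and the *meg* genes are above 0 on all 3, while *glh-2*, *glh-4*, *pgl-1* and *deps-1* change sign.

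The order of levels differed between the foods on the TPM scale, the scale on which genes of different length can be compared. In the Δ*lpp* group *pgl-1* had the highest median (118 TPM), followed by *deps-1* (100.3), *pgl-3* (84.7) and *glh-1* (70.5). The ranges of these neighbours overlapped across libraries, although within each of the 6 libraries the order was the same. *meg-1* (38.4) and *glh-2* (34.9) came next and were above each other in 3 libraries each. *glh-4* (25.8), *meg-3* (17.1) and *meg-4* (9.46) followed. In the BW25113 group *glh-1* was first (136 TPM), with no overlap with *pgl-1* (101.9). After it came *deps-1* (67.5), *pgl-3* (51.1), *glh-2* (22.2), *meg-1* (20.4) and *glh-4* (18.9), of which *deps-1* and *pgl-3* overlapped in range, as did *glh-2*, *meg-1* and *glh-4*. *meg-3* (7.37) and *meg-4* (4.04) stood at the low end.

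The summed TPM of the 10 genes was 463 to 611 in the Δ*lpp* libraries and 387 to 522 in the BW25113 libraries, with overlap. Leaving out *glh-1*, the other 9 summed to 395 to 527 TPM in the Δ*lpp* libraries and 252 to 379 TPM in the BW25113 libraries, without overlap. That separation depended on the scale: on CPM scaled by TMM the same 9 genes summed to 996 to 1343 in the Δ*lpp* libraries and 872 to 1443 in the BW25113 libraries, with the Δ*lpp* range inside the BW25113 range. *glh-1* alone made up 13.7% to 14.8% of the 10-gene sum in the Δ*lpp* libraries and 27.4% to 35.0% in the BW25113 libraries.

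The libraries of a group moved together across the genes. In the Δ*lpp* group replicate 5 had the highest CPM of all 9 tested genes. In the BW25113 group replicate 3 was highest for 7 of the 9 and replicate 1 lowest for 7. The coefficient of variation was 8.83% to 23.5% over the Δ*lpp* libraries and 8.14% to 27.4% over the BW25113 libraries, and *meg-1* had the largest in both. The germ cell markers had their highest sum in the same libraries (807 TPM in Δ*lpp* replicate 5 and 620 TPM in BW25113 replicate 3) and the lowest BW25113 sum in replicate 1 (403 TPM). The lowest Δ*lpp* sum was in replicate 3 (583 TPM), which on the same TPM scale was the lowest Δ*lpp* library for 5 of the 9 genes.

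Whole worms mix germline and somatic tissue, and in such samples fewer cells of a type and less RNA per cell cannot be told apart. Of 10 germ cell markers (such as *gld-1*, *glp-1* and *fbf-1*), 0 were called in the edgeR fit, with 6 at an unadjusted p under 0.05 and 5 at an adjusted p under 0.05 (1 higher and 4 lower), and their sum was 1426 to 1973 CPM over the Δ*lpp* libraries and 1310 to 2234 CPM over the BW25113 libraries. The 9 oocyte and eggshell markers summed to 5702 to 7966 CPM in the Δ*lpp* group and 2931 to 5963 CPM in the BW25113 group, with 1 (*perm-4*) called higher and 5 higher at an adjusted p under 0.05. All 8 tested sperm markers of 10 were called lower, with a sum of 2.92 to 5.26 CPM in the Δ*lpp* group and 123 to 202 CPM in the BW25113 group. In the Δ*lpp* group *spe-11*, *spe-38*, *spe-42* and *ssp-9* were at 0 CPM in at least 1 library. For *ssp-9* this was an estimated count of 0.5 before rounding. Early embryo markers were low in both groups, and the 6 genes summed to 4.08 to 6.02 CPM in the Δ*lpp* group and 1.71 to 6.47 CPM in the BW25113 group, with 2 of 4 tested called higher. Of the markers of muscle and hypodermis 2 of 3 were called lower for each, and all 3 of each were lower at an adjusted p under 0.05. Of 3 neuronal markers 1 was called higher, with all 3 higher at an adjusted p under 0.05. The edgeR fit called 0 of 3 intestinal markers, with 2 lower at an adjusted p under 0.05, and 0 of 2 gonadal sheath markers, with 1 higher. Of all tested genes, 12.1% were called higher and 15.6% lower in the same fit. At an adjusted p under 0.05, 32.9% were higher and 32.3% lower. The part of these tissues in the values of the P granule genes was not tested.

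To set the genes against other germline transcripts of the same library, each was divided by the summed TPM of the 10 germ cell markers, with no test. *gld-1* and *daz-1* weighed most in that sum. Their medians were 270.5 and 131.5 TPM in the Δ*lpp* group and 233.4 and 101.4 TPM in the BW25113 group. *glh-1* stood at 9.80% to 11.8% of the marker sum in the Δ*lpp* libraries and 23.1% to 33.7% in the BW25113 libraries, without overlap. By this measure 15.6% of all tested genes were lower without overlap and 16% higher. *pgl-3*, *deps-1*, *meg-1*, *meg-3* and *meg-4* lay higher in every Δ*lpp* library than in any BW25113 library, whereas on CPM scaled by TMM only *meg-4* of these 5 did. On log2(TPM + 1) the markers in the denominator had a median log2 fold change of 0.38, against 0.51 for all tested genes. With TMM the same medians were -0.25 and 0.05. Of the 5 genes, *meg-4* was at 1.34% to 1.58% in the Δ*lpp* libraries and 0.599% to 0.832% in the BW25113 libraries. *deps-1*, with the narrowest gap, was at 14.4% to 16.8% in the Δ*lpp* libraries and 12.7% to 14.1% in the BW25113 libraries. *glh-2*, *glh-4* and *pgl-1* overlapped between the groups, with *pgl-1* at 16.9% to 19.6% in the Δ*lpp* libraries and 18.8% to 23.3% in the BW25113 libraries.

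**Figure D4:**
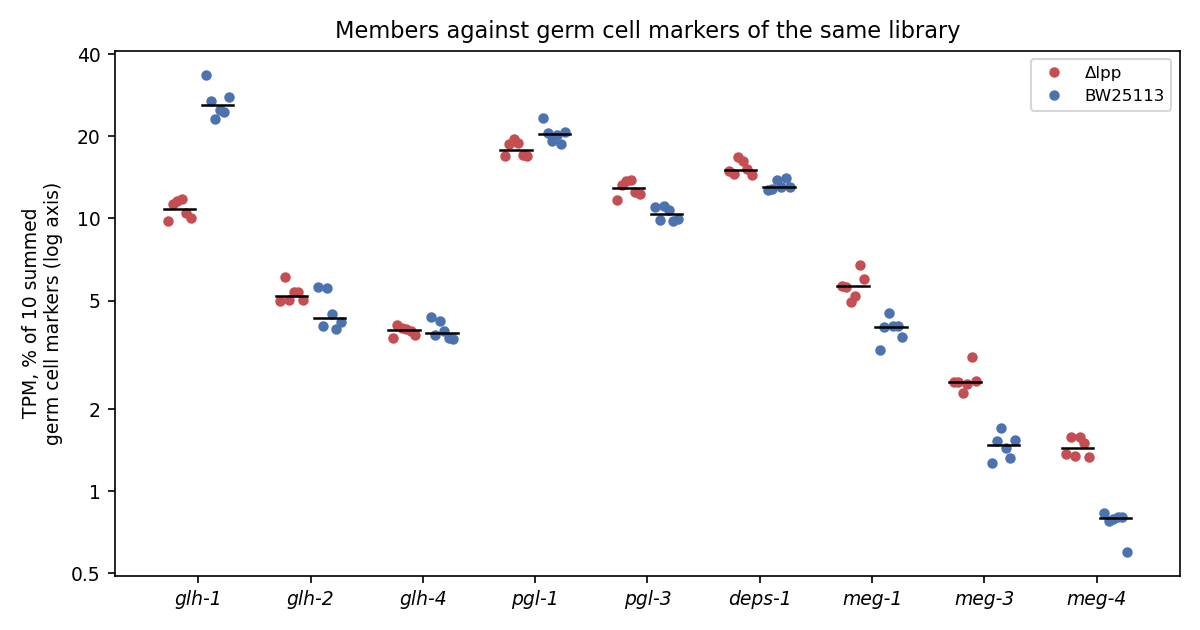
TPM of each tested gene as a percentage of the summed TPM of 10 germ cell markers in the same library (y axis, log scale), with Δ*lpp* libraries in red left of BW25113 libraries in blue and medians as lines. *glh-1* is at 9.80% to 11.8% in the Δ*lpp* libraries and 23.1% to 33.7% in the BW25113 libraries.

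Among 8120 other genes that averaged 10 CPM or more, the gene whose centred log2 CPM over the 12 libraries lay closest to *glh-1* was *hsp-60*, the mitochondrial chaperonin, with a root mean square difference of 0.0778 and a log2 fold change of -1.44. For *pgl-1* it was *cdc-48.1*, an AAA ATPase (0.0423), for *pgl-3* *rnr-1*, the large subunit of ribonucleotide reductase (0.0542), and for *deps-1* *par-2*, an embryonic polarity gene (0.0491). *glh-2* lay closest to *lotr-1*, a gene of the germ granules (0.0778), and *glh-4* to *rsp-5*, a splicing factor gene (0.0474). *meg-1* was nearest to *oma-2*, an oocyte RNA-binding protein gene (0.085), *meg-3* to *C27C12.3* (0.0634) and *meg-4* to *ceh-21*, a homeobox gene (0.0884). These distances are descriptions over 12 libraries that share the food groups and the depth range.

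Other genes of P granule biology were taken from lists. Of 12 further P granule proteins, all tested, 0 were called, against 27.7% of all tested genes. Their median log2 fold change was -0.13, against 0.05 for all tested genes. In this list 1 was higher and 3 were lower at an adjusted p under 0.05 from edgeR, against 32.9% and 32.3% of all tested genes. Of these, *meg-2*, a paralog of *meg-1*, had 0.42, and *csr-1*, *ife-1* and *prg-1* had -0.67, -0.61 and -0.40. CSR-1 and PRG-1 are Argonautes and IFE-1 is a cap-binding protein that binds PGL-1. *csr-1* had 197 to 250 CPM in the Δ*lpp* group and 305 to 411 CPM in the BW25113 group, without overlap. *pgl-2*, *mip-1*, *mip-2*, *gls-1*, *cgh-1*, *car-1*, *wago-1* and *alg-5* had values of 0.18, -0.030, -0.079, -0.14, -0.23, -0.21, 0.017 and -0.12, none at an adjusted p under 0.05. The list's median was 0.33 with library size only, against 0.50 for all tested genes, and 0.46 on log2(TPM + 1), against 0.51.

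For the neighbouring germ granules (Z granules, SIMR foci, Mutator foci and E granules), 20 of 21 listed names matched the table and all 20 were tested. The edgeR fit called 0, against 27.7% of all tested genes, and the median was 0.018. At an adjusted p under 0.05, 6 were higher and 2 lower, against 32.9% and 32.3% of all tested genes. Chosen after their values were seen, *znfx-1*, the helicase gene of Z granules, had 46.5 to 65.9 CPM in the Δ*lpp* group and 72.8 to 103.9 CPM in the BW25113 group (log2 fold change -0.77, adjusted p = 2.58e-06 from edgeR). *smut-1*, a Mutator helicase gene, had 48.2 to 53.98 CPM in the Δ*lpp* group and 30.9 to 44.8 CPM in the BW25113 group (log2 fold change 0.48, adjusted p = 0.00018 from edgeR). These were the 2 genes of the list without overlap between the groups, against 41.5% of all tested genes.

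Genes that segregate P granules to the germline side of the zygote, such as the polarity factors *mex-5*, *mex-6* and *par-1* and the kinase gene *mbk-2*, showed 0 of 8 calls and a median of 0.091. *pos-1*, at 0.41, was the 1 gene with an adjusted p under 0.05 (0.0324 from edgeR). Of 16 synMuv B repressor genes, which keep germline genes including those of P granules silent in somatic cells, 0 were called, 5 were higher and 0 lower at an adjusted p under 0.05, and the median was 0.12. Of 6 germline chromatin factors 0 were called, 1 (*mes-3*, at 0.64, chosen after its value was seen) was higher at an adjusted p under 0.05, and the median was 0.11. DESeq2 also called 0 in each of these 5 lists. Of all tested genes, edgeR called 27.7%, and at an adjusted p under 0.05 it had 32.9% higher and 32.3% lower. At an unadjusted p under 0.05 from edgeR there were 4 of the further P granule proteins, 10 of the neighbouring granule genes, 1 segregation gene, 5 synMuv B genes and 1 chromatin factor. The share of all tested genes at that unadjusted limit was not computed.

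The list of autophagy genes, which include those that clear PGL granules from the somatic cells of the embryo, held the 2 genes called among all 6 lists. All 18 were tested, 2 rose, 0 fell, and the median was 0.46. With library size only the median was 0.91 and 6 were called, against a median of 0.50 and 35.8% for all tested genes. On log2(TPM + 1) the median was 0.96 and 8 were called, against a median of 0.51 and 25.5%. Without BW25113 replicate 1 or without replicate 3, 4 were called, against 29.6% and 28.8% of all tested genes. With TMM and every library the called share was 11.1%, below the 27.7% of all tested genes. Without the limit on fold change, 13 of the 18 were higher and 1 was lower at an adjusted p under 0.05, against 32.9% and 32.3% of all tested genes. *epg-2*, whose product links PGL granules to autophagosomes, had 46.5, 56.3 and 63.4 CPM in the lowest, median and highest Δ*lpp* libraries and 11.7, 15.7 and 33.9 CPM in the BW25113 libraries. Its groups did not overlap, and it rose by 1.49 on the log2 scale (standard error 0.231, adjusted p = 3.46e-05 from edgeR). *atg-16.2*, whose product acts in autophagosome formation, had 22.9, 24.6 and 26.7 CPM in the Δ*lpp* group and 6.54, 7.30 and 13.9 CPM in the BW25113 group, and rose by 1.45 on that scale (standard error 0.167, adjusted p = 4.79e-07 from edgeR). *sepa-1*, the receptor gene for PGL-1 and PGL-3 in this pathway, was chosen after its value was seen, and had a log2 fold change of 0.98 (adjusted p = 3.78e-05 from edgeR), with 6.99 to 9.002 CPM in the Δ*lpp* group and 3.14 to 6.16 CPM in the BW25113 group.

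**Figure D5:**
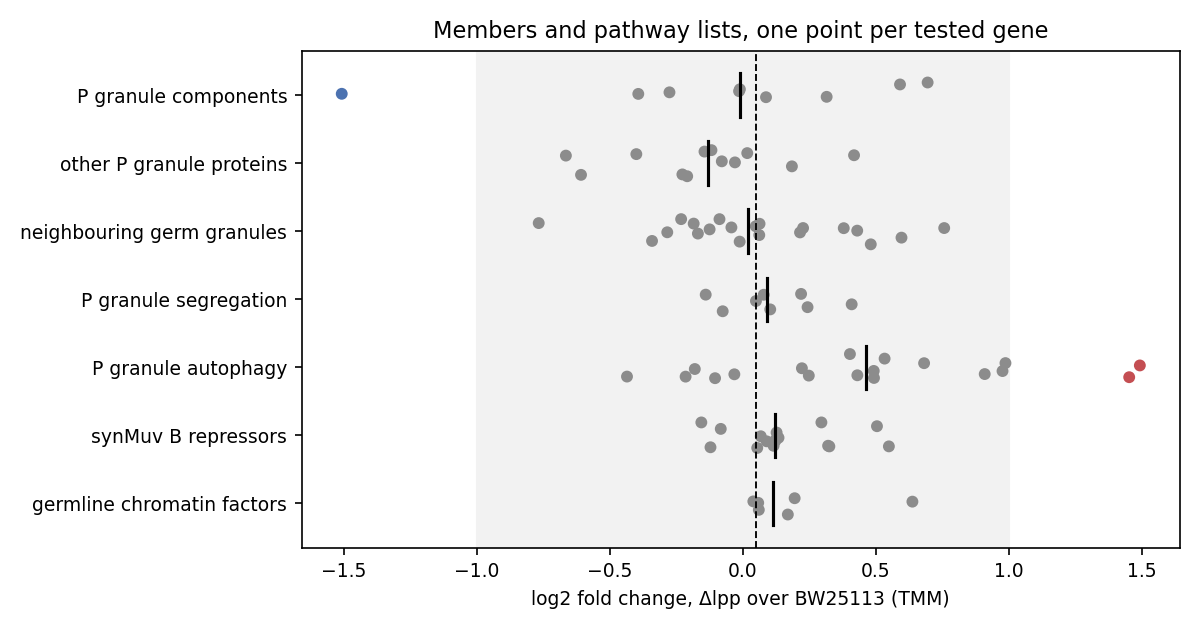
Log2 fold change with TMM, Δ*lpp* over BW25113 (x axis), of each tested gene in the P granule set and 6 lists (y axis), with list medians as black bars, the median of all tested genes (0.05) as a dashed line and genes called lower or higher in blue or red. *glh-1* at -1.51 and the autophagy genes *epg-2* at 1.49 and *atg-16.2* at 1.45 are the genes called.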

How the data were processed

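Per the paper's methods, the authors removed rRNA, sequenced paired reads, filtered them with Seqtk, aligned them with HISAT2 to WBcel235 (named in the submitters' processing notes), counted fragments with Stringtie and computed TPM with RNAnorm. Versions and the annotation are not given in the sources used here. The deposited estimated counts are not normalized, and 8.97% of them are not whole numbers. The deposited TPM values are scaled by gene length and library total. The length used for a gene was not the same in every library, as the TPM per count of *glh-4* relative to *glh-1* varied.

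Counts were rounded, filtered with filterByExpr (minimum count 10, minimum total 15), scaled by TMM and tested with edgeR 4.0.16 (robust quasi-likelihood, no covariate, R 4.3.3). The study's thresholds made a call. Alternatives used DESeq2 1.42.0, limma 3.58.1, other scalings and filters, the replicate number as a block and each library left out. Ratios used TPM + 0.1. All 46926 IDs matched Ensembl release 115. Replicates differed by more than sampling noise (chi-square per degree of freedom at least 4.41). The fits and permutation tests were tested on simulated data. Members and lists were chosen with earlier results of these data known. Named genes were the members, all further P granule proteins, up to 2 called genes per direction in each list, and the closest profile of each member. *znfx-1*, *smut-1*, *pos-1*, *mes-3* and *sepa-1*, and the markers named, fall outside this rule and were chosen after their values were seen. The authors' mean TPM columns were not used.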

Additional observations from a re-analysis of the deposited data

Results flagged for a closer look

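In 32 groups of 6 libraries tested (10 genes and 6 ratios in each food group), 4 had a library that stood far from the other libraries of its group by Dixon's test, where chance gives about 1 in 20. *glh-3* had 5.088 CPM in Δ*lpp* replicate 2, where the other Δ*lpp* libraries had at most 1.71 CPM. It had 4.851 CPM in BW25113 replicate 3, where the other BW25113 libraries had at most 1.15 CPM. *meg-4* had 34.1 CPM in Δ*lpp* replicate 5, the library that was also highest for the other 8 tested genes. The ratio of *deps-1* over *pgl-1* was 0.777 in Δ*lpp* replicate 2, the lowest of its group and still above the highest BW25113 value of 0.747.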

How the results depend on the processing

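The fall of *glh-1* kept its direction and its side of the limit in 19 of 22 alternatives, at -1.56 to -1.06. It stood at -0.94 with the helicase genes summed, at -0.89 for TPM + 1 and at -0.90 for TPM + 0.1. The 5 ratios with a difference, which include those that share *pgl-1* as denominator, kept it in every alternative. Of the 9 genes, 2 were called higher when no scaling beyond library size was used and for both pseudocounts on TPM. For both pseudocounts 0 were called lower. Among all tested genes, 24.4% were called higher with library size only and 17.3% for TPM + 1, where 8.15% were called lower. For TPM + 0.1, 4558 of the 15266 tested genes were called higher and 1593 lower. The sign of *glh-2* and *deps-1* depended on the setting. For *glh-2* it turned positive for upper quartile factors (0.087), library size (0.45), at least 10 counts in every library (0.027), the replicate block (0.011), TPM + 1 (0.60) and TPM + 0.1 (0.62). For *deps-1* the values of those settings were 0.083, 0.45, 0.020, 0.0093, 0.61 and 0.61. Leaving out each library in turn gave -0.080 to 0.11 for *glh-2* and -0.078 to 0.077 for *deps-1*. *glh-4* turned positive for library size (0.18), TPM + 1 (0.38) and TPM + 0.1 (0.39), and *pgl-1* for the same settings (0.063, 0.22 and 0.22). The cause of these differences was not tested.

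The autophagy list had 4 calls with at least 10 counts in every library, 5 with upper quartile factors, 6 with library size, 8 for TPM + 1 and 9 for TPM + 0.1. Of all tested genes, those settings called 17.8%, 28.5%, 35.8%, 25.5% and 40.3%, in the same order. The autophagy list had 2 to 4 calls with each library left out. It had 4 without BW25113 replicate 1 or without replicate 3, against 29.6% and 28.8% of all tested genes. The neighbouring granules had 2 calls with library size and 4 for either pseudocount on TPM. The chromatin factors had 1 in those 3 settings, the segregation genes 1 for either pseudocount, the synMuv B genes 1 for TPM + 1 and 3 for TPM + 0.1, and the further P granule proteins 1 for TPM + 0.1.

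Same-numbered libraries share a number only. Their deviations from the group means correlated at -0.166 to 0.332, and 1 of 6 correlated best with its own number. The replicate block left the member calls at 0 higher and 1 lower and moved the autophagy list to 4 calls. With that block 27.9% of all tested genes were called. The cause of the uneven counts of *glh-3* across libraries was not tested.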
